A study of Mus musculus with 2 samples.

Results

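The innate defence genes described here were 9 genes for secreted or transporting proteins of gland epithelium, namely Wfdc18, Wfdc2, Wfdc12, Ltf, Lcn2, Pigr, Sftpd, Pglyrp1 and Dmbt1. They were chosen by symbol, and all 9 were found among 27775 counted genes, each as a single feature. The data were counts of single cells from lacrimal glands, the glands that make the watery part of tears, of wild-type mice of the outbred CD1 strain, with no treatment named. There were 2 libraries, 1 from postnatal day 4 (P4) and 1 from embryonic day 16 (E16). Dissected glands were pooled, digested with Liberase TM and DNaseI and filtered to single cells, from a number of animals not given in the sources used here. Because each stage was 1 library, stage and library cannot be told apart, no test was possible, and every interval below covers counting error only.

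Tears, milk and saliva carry a shared set of proteins that act on microbes before any adaptive response. Some hold a whey acidic protein (WAP) domain and act on bacteria or on proteases, some withhold iron, some bind microbial surfaces, and one ferries immunoglobulin A to the lumen. In adult glands such proteins come from duct cells, acinar cells or both. Several of them, Ltf, Lcn2 and Pglyrp1 among them, are also stored in the granules of neutrophils.

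In brief, Wfdc18 was highest in duct-like cells of both libraries, and Sftpd and Ltf were found in a subset of the duct-like cells of P4. Pglyrp1, Wfdc12 and Dmbt1 were at their highest level in a few P4 cells filled with Dcpp messages. Lcn2 was lower in P4 than in E16 over all epithelial-like cells. The stages lay closer within matching clusters, and the 2-fold call did not hold in every alternative. In E16 most of its UMIs lay outside the duct-like class, which had 8 of the 87 epithelial-like cells. Pigr, the transporter of immunoglobulin A, had 1 UMI in all cells kept. A UMI, or unique molecular identifier, stands for 1 captured RNA molecule.

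Barcodes with at least 200 detected genes were kept, which left 406 of 687 in P4 and 259 of 437 in E16. The kept cells held a median of 3767 UMIs in P4 (range 715 to 64020) and 5802 in E16 (range 852 to 31749). Cells were clustered without the 9 genes, so that their levels did not form the classes. The duct-like class was a single cluster led by Cldn4, Krt18, Krt7, Cldn3 and Krt8, keratins and tight-junction genes of simple epithelium, with 33 cells in P4 and 8 in E16. Other epithelial-like cells came from 3 clusters. One was led by Mia, Lgals7, Krt14, Krt15 and Trim29 (21 cells in P4, 48 in E16). Another had Col9a1, Fbxo32, Sfrp1 and Fam150b among its leading genes (4 in P4, 31 in E16). The last was led by Dcpp3, Dcpp2, Dcpp1, Smgc and Scgb2b27, genes of secretory cells, with 40 cells in P4 and 0 in E16. Together these made 65 other epithelial-like cells in P4 and 79 in E16, beside 308 and 172 non-epithelial cells. The Mia-led and Col9a1-led clusters scored highest for myoepithelial markers. The 5 leading genes of the Dcpp-led cluster are in the acinar list used, and 6 of the general epithelial markers had a UMI in at least 20% of its cells. Its Dcpp and Smgc messages lay in few cells. In 32 of the 40 cells, Dcpp1, Dcpp2, Dcpp3 and Smgc made up 0.37% of the UMIs together, and at most 4.14% in a cell. A UMI of Dcpp1 was found in 80% of the cluster's cells and in 79.9% of non-epithelial cells of P4. With 0 cells in E16, that cluster may be its library rather than a type. Of 11 duct markers, 10 had a UMI in the duct-like cells of P4 (Aqp3 at 0) and 9 in those of E16 (Prom1 and Aqp3 at 0), at a summed 2288 and 5862 CPM (UMIs per 1000000 of the class).

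The 9 genes lie on 6 autosomes of mm10 (GRCm38), placed here from the GENCODE M21 annotation, and all are protein coding. Wfdc2 (chr2:164562413-164568510, plus strand) and Wfdc12 (chr2:164189231-164190608, minus strand) sit 371805 bases apart in a cluster of WAP genes. Wfdc18 is apart from them on chr11:83709015-83711348 (plus strand). Lcn2 is at chr2:32384633-32388252 (minus), Ltf at chr9:111019271-111042767 (plus), Sftpd at chr14:41172214-41185149 (minus) and Pigr at chr1:130826684-130852249 (plus). Pglyrp1 (chr7:18871331-18890459, plus) and Dmbt1 (chr7:131032053-131121630, plus) share a chromosome but are 112141594 bases apart. No 50-base stretch of the Wfdc18, Wfdc2, Wfdc12, Ltf, Lcn2, Sftpd or Dmbt1 transcripts occurs in a transcript of another gene. Such stretches made up 2.67% of those of Pglyrp1 and 0.458% of those of Pigr. Wfdc12 overlaps A730032A03Rik and Dmbt1 overlaps Fgfr2, both on the opposite strand, and the strand setting of the counting was not given in the sources used here. In the P4 cells that carried Dmbt1, Fgfr2 had 0 UMIs, and A730032A03Rik had 1 UMI in all cells kept.

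Upstream sequence is shown for 3 genes with different places in the epithelium. Wfdc18 was highest in the duct-like class, Lcn2 was higher in E16 over all epithelial-like cells, and Pglyrp1 was highest in Dcpp-rich cells. RefSeq promoters (GRCm38.p6) were matched for 7 of the 9 genes, not for Sftpd or Dmbt1. Each line gives the 250 bases before the RefSeq start, 5′ to 3′ on the gene's strand, at chr11:83708754-83709003 (plus) for Wfdc18, chr2:32387740-32387989 (minus) for Lcn2 and chr7:18884440-18884689 (plus) for Pglyrp1. The RefSeq start lies 11 bases from the outermost GENCODE start for Wfdc18, 513 for Lcn2 and 13359 for Pglyrp1, so other starts of these genes have other upstream sequence. Capitals mark matches on either strand to TATAAA, to TTNNGCAA (a C/EBP-type motif), to AGGAAG (an ETS-type motif) or to the kappaB consensus.
Wfdc18: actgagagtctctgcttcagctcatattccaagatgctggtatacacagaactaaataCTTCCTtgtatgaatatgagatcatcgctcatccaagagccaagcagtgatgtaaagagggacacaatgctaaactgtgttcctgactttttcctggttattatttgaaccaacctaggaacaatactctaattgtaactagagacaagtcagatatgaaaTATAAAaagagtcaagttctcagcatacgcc
Lcn2: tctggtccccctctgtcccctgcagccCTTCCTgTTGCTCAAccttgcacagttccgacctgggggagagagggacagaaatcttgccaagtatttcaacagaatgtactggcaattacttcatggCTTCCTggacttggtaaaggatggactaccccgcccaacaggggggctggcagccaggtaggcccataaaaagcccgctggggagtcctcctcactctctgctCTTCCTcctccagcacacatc
Pglyrp1: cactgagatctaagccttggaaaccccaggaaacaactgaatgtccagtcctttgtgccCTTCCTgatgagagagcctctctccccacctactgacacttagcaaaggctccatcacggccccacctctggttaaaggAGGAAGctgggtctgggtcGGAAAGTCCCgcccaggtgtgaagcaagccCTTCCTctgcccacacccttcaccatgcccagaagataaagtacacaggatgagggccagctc
Wfdc18 carried TATAAA at positions -31 to -26 from its start, as did 12.4% of 32851 RefSeq upstream windows of this length. Pglyrp1 carried a kappaB match at -93 to -84, which 3.90% of windows held. Lcn2 had TTNNGCAA at -216 to -209, held by 9.56% of windows. AGGAAG occurred 3 times in Lcn2, 3 times in Pglyrp1 and 1 time in Wfdc18, and 29.5% of windows held it. No match overlapped another, and a match of letters does not show that a factor binds.

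**Figure D1:**
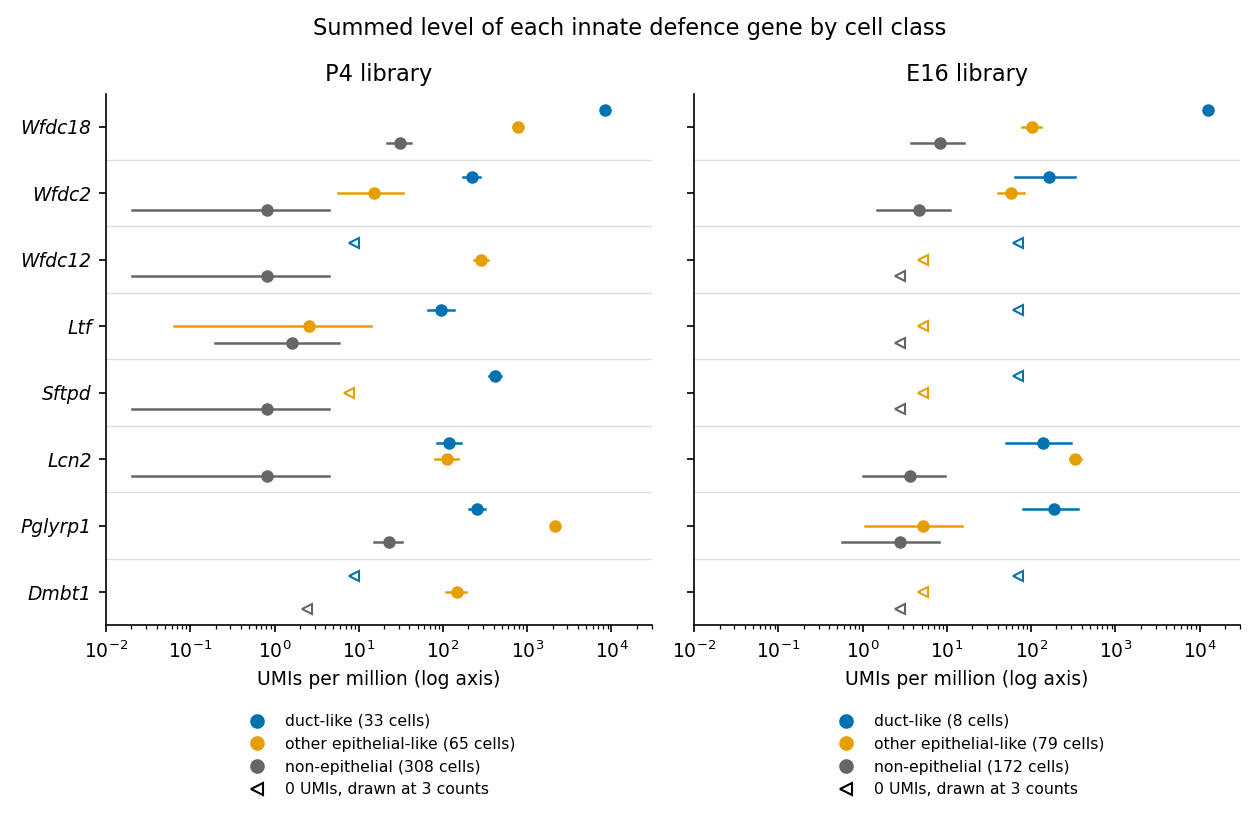
Level of 8 genes in UMIs per 1000000 of the class (log axis) in the P4 library (left) and the E16 library (right), for duct-like, other epithelial-like and non-epithelial cells. Points are summed levels, lines are exact Poisson 95% intervals, and open triangles stand for 0 UMIs, drawn at 3 counts. Wfdc18 is far right in duct-like cells of both libraries, at 8311 in P4 and 12717 in E16.

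Wfdc18, a small secreted WAP-domain protein first known from mouse mammary gland, had its highest class level in duct-like cells. Summed over the class and given as CPM, its level was 8311 CPM in duct-like cells of P4 (95% interval 8009 to 8622), 768 in other epithelial-like cells and 30.7 in non-epithelial cells. In E16 the order was the same, with 12717 CPM (11677 to 13824) in duct-like, 103 in other epithelial-like and 8.30 in non-epithelial cells. A UMI of Wfdc18 was found in 30 of 33 duct-like cells of P4 and in all 8 of E16. Per 10000 UMIs of a cell, the P4 duct-like cells ranged between 0 and 949 with a median of 56.5. The 8 duct-like cells of E16 held 178, 120, 86, 58, 34, 28, 26 and 21 UMIs, a median of 147 per 10000, and these cells lay within the P4 range. Duct-like cells exceeded other epithelial-like cells 10.8-fold in P4 (9.60 to 12.2) and 124-fold in E16 (94.6 to 164).

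Between stages the Wfdc18 value depended on the class in view. Over all epithelial-like cells it was 4.40-fold higher in P4 (4.03 to 4.80), at 4286 against 975 CPM in E16. Within duct-like cells the ratio of P4 over E16 was 0.654 (0.596 to 0.717), and it was 0.928 when each cell was given the same weight. Duct-like cells were 33 of 98 epithelial-like cells in P4 and 8 of 87 in E16, and they held 89.4% and 88.9% of the Wfdc18 UMIs of the kept cells. The within-class value changed with the bounds of the duct-like class. With coarser clustering (Leiden resolution 0.5) the class had 37 cells in P4 and 39 in E16, and the ratio was 6.26. With a per-cell marker rule (40 cells in P4, 27 in E16) it was 3.57, and at resolution 2 (14 and 8 cells) it was 1.98.

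Outside the duct-like class, Wfdc18 was spread unevenly. In P4 the Dcpp-led cluster had 284 of the 302 UMIs, in 18 of 40 cells, and the Mia-led cluster had 2 UMIs in 2 of 21 cells. That last share, 9.52% at a median of 1131 UMIs a cell, was no higher than the 11.0% of non-epithelial cells with a UMI (34 of 308, median 3822 UMIs), cells that should lack the gene. At 57.5 CPM (6.96 to 208), the Mia-led cluster did not differ detectably at this depth from the 30.7 CPM of non-epithelial cells. Mesenchyme-like cells of P4 had 24 UMIs in 21 of 176 cells (29.7 CPM), endothelial-like cells 4 in 22 cells, and macrophage-like cells 3 in 47 cells. In E16 the Mia-led cells had 39 UMIs in 7 of 48 cells (251 CPM), a share of 14.6% at a median of 2348 UMIs, against 4.65% of non-epithelial cells at a median of 5838.

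Wfdc2, also called HE4, is a WAP protein known from the ducts of many human glands. In duct-like cells of P4 it had 76 UMIs in 21 of 33 cells (221 CPM), and the 4 highest cells had 17, 9, 6 and 6 UMIs. Other epithelial-like cells of P4 had 6 UMIs in 6 of 65 cells (15.3 CPM), so duct-like cells were 14.5-fold higher (6.36 to 40.7). In E16 it had 7 UMIs in 3 of 8 duct-like cells (162 CPM) and 34 in 22 of 79 other epithelial-like cells (58.3 CPM), a 2.77-fold difference (1.04 to 6.35) that was 1.02 at Leiden resolution 0.5 and 0.897 under the per-cell marker rule. The Col9a1-led cells of E16 held 24 of those 34 UMIs. Over all epithelial-like cells the ratio of P4 over E16 was 1.70 (1.16 to 2.54), inside the 2-fold bounds. Within duct-like cells it was 1.37 (0.633 to 3.52), and between 2.91 and 3.46 at both other resolutions, under the per-cell rule and with equal cell weights.

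Wfdc12, a WAP protein with antibacterial action in mouse, had 112 UMIs in P4 and 0 in E16. It was found in 5 epithelial-like cells, all of the Dcpp-led cluster, with 70, 28, 11, 1 and 1 UMIs, and 1 UMI fell in a non-epithelial cell. Duct-like cells of P4 had 0 UMIs in 33 cells, which allows a share of cells with a UMI of up to 9.09% (3 counts of 33 cells). Over epithelial-like cells it was 31.5-fold higher in P4 than in E16 (interval from 25.2), with the 0 of E16 set at 3 counts over the class. That call rests on 2 deep cells, since 13 UMIs were left without cells over 20000 UMIs.

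Ltf and Lcn2 withhold iron from microbes. Ltf encodes lactoferrin, the iron-binding protein of milk and tears. It had 33 UMIs in 7 of 33 duct-like cells of P4 (96.1 CPM), at 18, 7, 4, 1, 1, 1 and 1 UMIs, and 0 UMIs in all kept cells of E16. Other epithelial-like cells of P4 had 1 UMI and non-epithelial cells 2. Duct-like cells were 37.8-fold higher than other epithelial-like cells of P4 (6.32 to 1536). A single cell held 54.5% of the duct-like UMIs, and without it 16 UMIs were left over all epithelial-like cells of P4, under the 30 needed for a call. The floor of 3 counts in the 8 duct-like cells of E16 was 69.2 CPM, and the P4 level was 1.39 times that floor, so a difference within duct-like cells was not detectable at this depth.

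Lcn2 encodes lipocalin-2, which binds bacterial siderophores. It was the 1 gene of the set that was lower in P4, at 115 CPM against 322 CPM in E16 over epithelial-like cells, or 2.79-fold lower in P4 (2.16 to 3.64). In P4 it had 41 UMIs in 12 of 33 duct-like cells (119 CPM) and 44 in 11 of 65 other epithelial-like cells (112 CPM), a ratio of 1.07 (0.680 to 1.67). That ratio was 0.493 with equal cell weights, 0.477 without cells rich in Dcpp or Smgc and 2.62 under the per-cell rule, so no order of these classes is read from it. In E16 it had 6 UMIs in 3 of 8 duct-like cells (138 CPM) and 196 in 48 of 79 other epithelial-like cells (336 CPM). Within matching clusters the stages lay closer together. Mia-led cells had 201 CPM in P4 (80.9 to 415, 21 cells) and 264 CPM in E16 (189 to 358, 48 cells). Col9a1-led cells had 374 CPM in P4 (199 to 639, 4 cells) and 362 CPM in E16 (307 to 424, 31 cells), with a UMI in 28 of those 31. The Dcpp-led cluster of P4 had 74.2 CPM, with 20 of its 24 UMIs in 1 cell. The 2-fold call between stages ended without the Dcpp- or Smgc-rich cells (P4 over E16 0.508) and with each cell weighted equally (0.565). Non-epithelial cells had 1 UMI in P4 and 4 in E16.

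**Figure D2:**
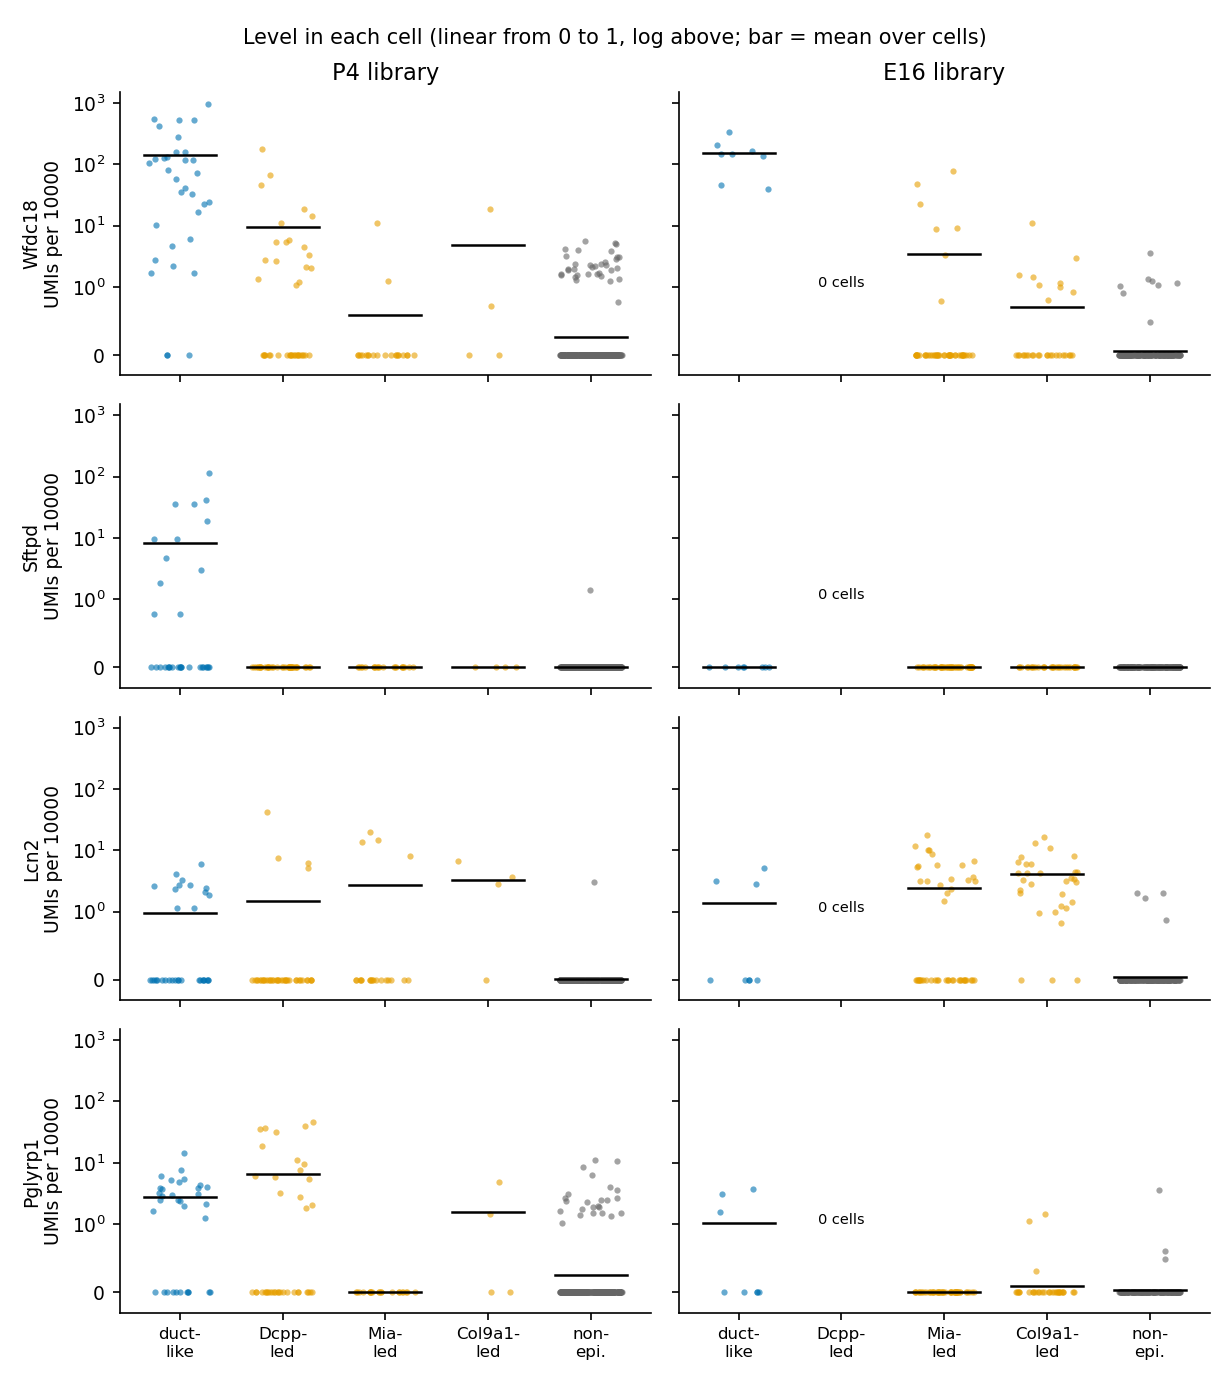
UMIs per 10000 of each cell for Wfdc18, Sftpd, Lcn2 and Pglyrp1 (rows) in the P4 library (left) and the E16 library (right), by cluster, on an axis that is linear up to 1 and logarithmic above. Points are cells and bars are means over cells. Sftpd shows points above 0 almost only in duct-like cells of P4, and Lcn2 is densest in the Mia-led and Col9a1-led cells of E16.

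Among the proteins that bind microbial surfaces, Sftpd encodes surfactant protein D, a collectin that recognises sugars on microbes. In P4 it had 144 UMIs in 12 of 33 duct-like cells (419 CPM, 353.5 to 493.5). The 12 cells held 57, 38, 11, 8, 7, 5, 5, 5, 4, 2, 1 and 1 UMIs. The other 65 epithelial-like cells had 0 and 308 non-epithelial cells had 1 UMI. Duct-like cells were 54.9-fold higher than other epithelial-like cells with that 0 set at 3 counts (interval from 44.1). E16 had 0 UMIs in all 259 kept cells. Within duct-like cells P4 was 6.05-fold higher with the 0 of E16 set at 3 counts, or 69.2 CPM (interval from 4.86). The 8 duct-like cells of E16, 0 of them with a UMI, allow a share of cells with a UMI of up to 37.5% by the same limit, at a median of 3902 UMIs a cell, so no difference in this share is read between the stages.

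Pglyrp1 encodes a peptidoglycan recognition protein, which binds bacterial cell wall. In P4 it had 832 UMIs in 18 of 65 other epithelial-like cells (2117 CPM), 88 in 22 of 33 duct-like cells (256 CPM) and 28 in 24 of 308 non-epithelial cells (22.6 CPM). In E16 there were 3 UMIs in other epithelial-like cells, 8 in 3 of 8 duct-like cells (185 CPM) and 3 in non-epithelial cells. Over epithelial-like cells it was 71.2-fold higher in P4 (39.6 to 143), and within duct-like cells the ratio was 1.39 (0.674 to 3.31), though 10.7 at Leiden resolution 0.5 and 29.4 under the per-cell rule. The large class difference came from very few cells. In P4, 6 cells in which Dcpp1, Dcpp2 and Dcpp3 held over 10% of the UMIs had 768 of the 832 UMIs. Without cells rich in Dcpp or Smgc, P4 over E16 was 15.1 over epithelial-like cells, and duct-like cells were 0.901 of other epithelial-like cells, against 0.121 with them. Within the duct-like class of P4 the gene was low, with at most 11 UMIs in a cell. Endothelial-like cells had 6 UMIs in 5 of 22 cells in P4 and 3 in 3 of 10 in E16, and T or innate lymphoid-like cells of P4 had 2 UMIs in 18 cells.

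Dmbt1 encodes a large scavenger-receptor protein of saliva and mucus that clumps bacteria. It had 57 UMIs in P4, at 21, 16, 10, 5 and 5 in 5 of those 6 Dcpp-rich cells, and 0 in every other kept cell of either library. With the 0 of E16 set at 3 counts, it was 16.2-fold higher in P4 over epithelial-like cells (interval from 12.7). Without cells over 20000 UMIs, 5 UMIs were left. Pigr, the polymeric immunoglobulin receptor, had 1 UMI, in a Dcpp-rich cell of P4. Over epithelial-like cells that is 1.36 CPM in P4 (0.034 to 7.56), and 3 counts in E16 would be 4.79 CPM, so no difference was detectable at this depth.

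**Figure D3:**
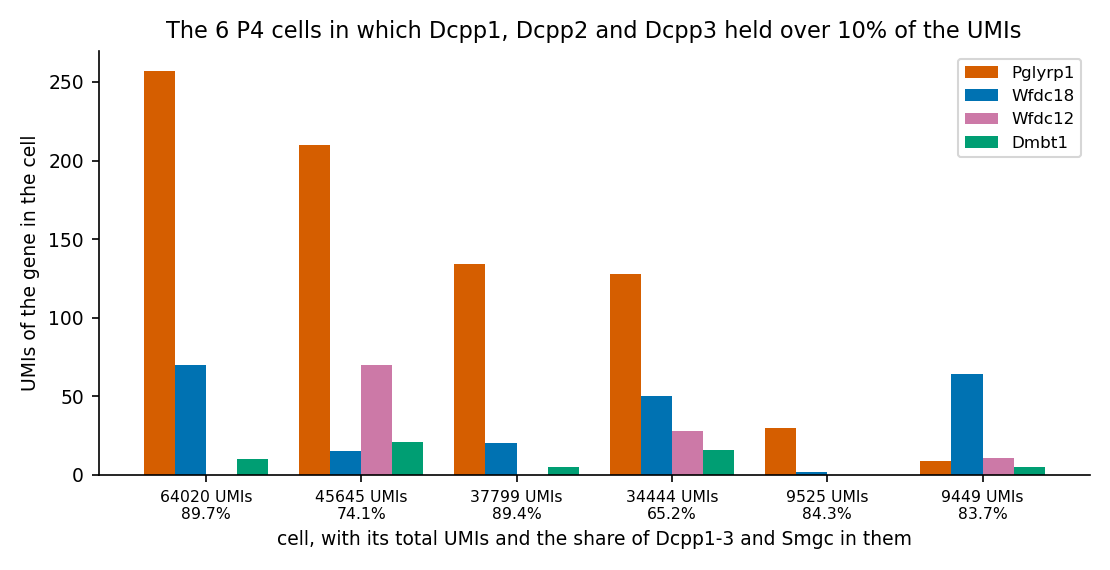
UMIs of Pglyrp1, Wfdc18, Wfdc12 and Dmbt1 (bars, axis from 0) in each of the 6 P4 cells in which Dcpp1, Dcpp2 and Dcpp3 held over 10% of the UMIs, labelled with the cell's total UMIs and the share of Dcpp1, Dcpp2, Dcpp3 and Smgc. Pglyrp1 is the tallest bar in 5 of the 6 cells, at up to 257 UMIs, and Wfdc12 is present in 3.

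Dcpp genes encode demilune cell proteins, secreted products first known from mouse salivary glands. The 6 cells held 9449 to 64020 UMIs, of which Dcpp1, Dcpp2, Dcpp3 and Smgc made up 65.2% to 89.7%. Their Pglyrp1 counts were 257, 210, 134, 128, 30 and 9, in order of depth. Wfdc18 was found in all 6, at 70, 15, 20, 50, 2 and 64 UMIs. Its level there was 1100 CPM, and 5903 CPM with Dcpp1, Dcpp2, Dcpp3 and Smgc left out of the totals. The duct-like cells of P4 had 8311 CPM over all their UMIs. Sftpd, Ltf, Lcn2 and Wfdc2 were at 0 in all 6. Thus the cells with Dmbt1 and most Wfdc12 had 0 UMIs of Sftpd and Ltf, while Wfdc18 was found both there and in duct-like cells. Of the 33 duct-like cells of P4, 12 had Sftpd and 7 had Ltf, so 6 cells are too few to read an absence. A further 2 cells rich in Smgc held 9 and 5 UMIs of Pglyrp1 and 1 each of Wfdc12, and 1 of these cells held 1 UMI of Ltf. The remaining 32 cells of the cluster had 44 UMIs of Pglyrp1, 35 of them in 1 cell of 18717 UMIs, and 0 of Wfdc12 and Dmbt1.

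Since CPM divides by all UMIs of a class, messages this abundant lower the CPM of its other genes. Leaving genes with at least 1% of the UMIs of either class out of the totals moved the median log2 ratio of all genes by 0.39 for P4 over E16 in epithelial-like cells and by -0.87 for duct-like over other epithelial-like cells of P4. The median itself was -0.53 in the first comparison and 0.92 in the second before this change, and -0.14 and 0.06 after it.

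**Figure D4:**
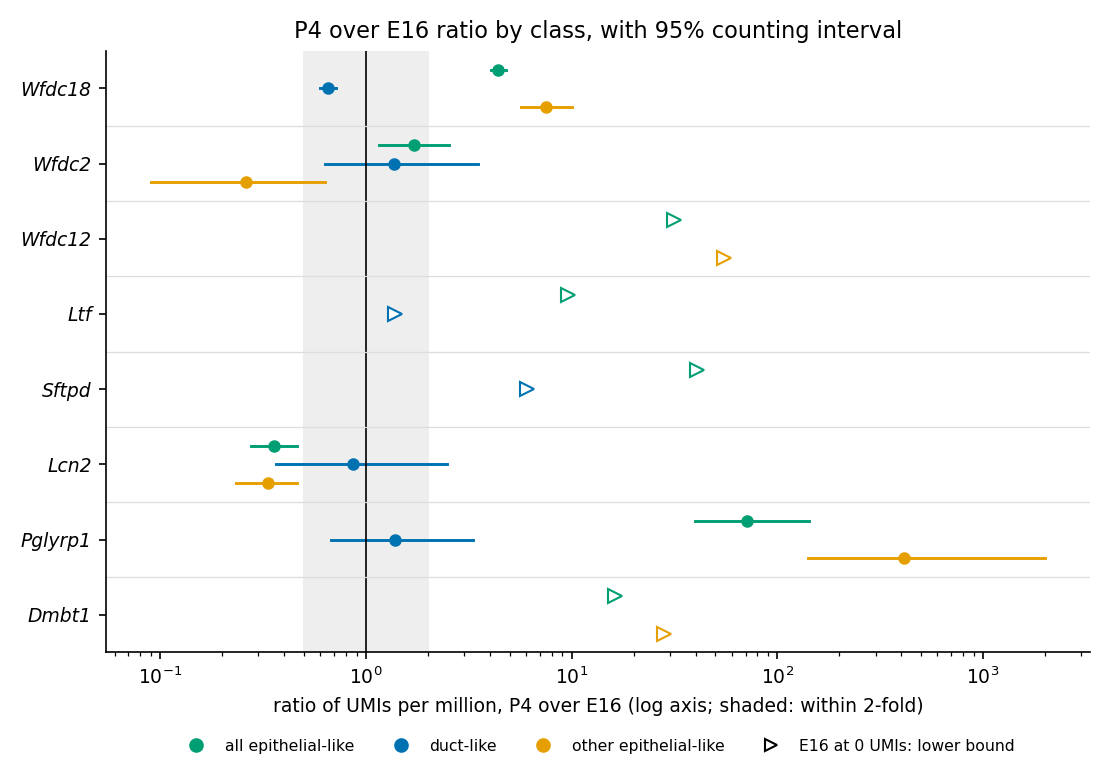
Ratio of CPM, P4 over E16 (log axis), for each gene with at least 30 UMIs in all epithelial-like, duct-like or other epithelial-like cells. Points with lines are ratios with exact conditional 95% intervals, and the shaded band is within 2-fold. Open triangles, labelled as lower bounds, are ratios where the 0 UMIs of E16 were set at 3 counts. Wfdc18 lies right of the band in all epithelial-like cells, at 4.40, and inside it in duct-like cells, at 0.654.

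Counted over the set, 8 of the 9 genes had at least 30 UMIs over epithelial-like cells of both libraries. Of these, 6 were at least 2-fold higher in P4 (Wfdc18, Wfdc12, Ltf, Sftpd, Pglyrp1 and Dmbt1), against 7.09% of the 5007 genes with as many UMIs. Of the 6, Wfdc12, Ltf, Sftpd and Dmbt1 had 0 UMIs in E16 and reached 30 UMIs through P4 alone. With the 0 set at 3 counts, any such gene is called higher here, so these calls were fixed once the filter was passed. Lcn2 was at least 2-fold lower, against 27.4% of all genes, and Wfdc2 lay between. With abundant genes left out of the totals, 7 were higher, Wfdc2 with a ratio of 2.23, and Lcn2 remained lower at 0.470. All genes then split into 11.5% higher and 14.7% lower. In duct-like cells alone, 1 of 6 measured genes, Sftpd, was at least 2-fold higher in P4 (17.5% of all genes) and 0 were lower (8.48%). That count changed with how cells were classed or weighted. At Leiden resolution 0.5, 5 of 6 were higher (11.9% of all genes) and Lcn2 was lower (0.418), as 15.3% of all genes were. At resolution 2 it was 3 of 5 higher (16.5%), and under the per-cell marker rule 7 of 8 (9.93%). With each cell weighted equally it was 4 of 6, and no share over all genes was computed with that weighting. Wfdc2, Ltf and Sftpd were among the higher ones in each of these alternatives. Ltf and Sftpd, and Wfdc12 and Dmbt1 under the per-cell rule, had 0 UMIs in E16 and reached 30 UMIs through P4 alone. Their calls therefore rest on the 0 set at 3 counts, and their recurrence is no check of a difference. In other epithelial-like cells, 4 of 6 were higher (4.32% of all genes) and 2 lower (54.4%). Wfdc18 was 7.47-fold higher (5.65 to 10.0) and Wfdc2 3.82-fold lower (1.58 to 11.1). Wfdc12 and Dmbt1 were called higher there by the same rule, with 0 UMIs in E16. With abundant genes left out, Lcn2 moved inside 2-fold there (0.612), Wfdc2 was at 0.481, and all genes split into 10.4% higher and 19.2% lower. The clusters behind that last class differed between the libraries, the Dcpp-led one in P4 and the Mia-led and Col9a1-led ones in E16.

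Against non-epithelial cells of the same library, all 8 measured genes were at least 2-fold higher in epithelial-like cells of P4 (9.25% of all genes higher, 30.1% lower), and all 3 measured genes were in E16 (17.7% higher, 17.6% lower). With abundant genes left out of the totals these counts were again 8 and 3, and all genes split into 14.3% higher and 23.5% lower in P4 and 12.0% and 21.3% in E16. In non-epithelial cells of P4, Wfdc2, Wfdc12, Lcn2 and Sftpd had 1 UMI, Ltf had 2 and Dmbt1 had 0. In those of E16, Wfdc18 had 9, Wfdc2 had 5 and Lcn2 had 4. These genes reached 30 UMIs through epithelial-like cells, so their calls were fixed once the filter was passed. The set was also chosen as genes of gland epithelium. The P4 ratios ranged between 28.6 for Ltf (7.33 to 246) and 242 for Sftpd (42.8 to 9634). Dmbt1 was at 32.0 (interval from 25.2), with its 0 in non-epithelial cells set at 3 counts. In E16 they were 117 for Wfdc18 (61.5 to 258), 87.4 for Lcn2 (33.6 to 324) and 14.2 for Wfdc2 (5.61 to 46.0). Within the P4 epithelium, duct-like cells were at least 2-fold higher than other epithelial-like cells for 4 of 8 genes, Wfdc18, Wfdc2, Ltf and Sftpd, where 44.9% of all genes were. They were at least 2-fold lower for Wfdc12, Pglyrp1 and Dmbt1, where 3.5% of all genes were. The calls of Sftpd, at 0 UMIs in other epithelial-like cells, and of Wfdc12 and Dmbt1, at 0 in duct-like cells, were fixed once 30 UMIs were reached. Under the per-cell marker rule the direction turned for the lower genes, at ratios of 28.0 for Wfdc12, 6.66 for Pglyrp1 and 3.49 for Dmbt1. All 8 genes were then higher, where 11.1% of all genes were higher and 11.4% lower. With abundant genes left out of the totals the same counts were found for the set, 4 and 3, and all genes split into 12.3% higher and 9.04% lower. In E16, 2 of 3 measured genes were higher in duct-like cells (9.4% of all genes) and Lcn2 was 2.43-fold lower (1.09 to 6.69), as 19.6% of all genes were at least 2-fold lower. That ratio for Lcn2 was 1.29 at Leiden resolution 0.5.

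Because Ltf, Lcn2 and Pglyrp1 are also neutrophil genes, a list of 13 neutrophil markers was read in the same cells. All 13 were at 0 UMIs in the duct-like cells of P4 and of E16. In other epithelial-like cells 1 marker had 1 UMI in P4 and all 13 were at 0 in E16. Non-epithelial cells had 14 UMIs over 6 of the markers in P4 and 15 over 2 in E16.

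Of the 3 classes, the duct-like class had the densest co-detection. At least 2 of the 9 genes had a UMI in 28 of 33 duct-like cells of P4 (84.8%), in 18 of 65 other epithelial-like cells and in 5 of 308 non-epithelial cells. In E16 the counts were 5 of 8, 29 of 79 and 2 of 172. The Col9a1-led cluster of E16, part of the other epithelial-like class, held 21 of those 29 cells. That was 67.7% of its 31 cells, beside 62.5% of duct-like cells, at a median of 10799 UMIs a cell. Duct-like cells were deeper than the others in P4, with a median of 9704 UMIs against 1948 in other epithelial-like and 3822 in non-epithelial cells, while in E16 the medians were 3902, 5191 and 5838. After each cell was thinned to 1000 UMIs, 16 of 33, 10 of 54 and 0 of 297 cells in P4 and 3 of 8, 4 of 78 and 0 of 170 in E16 held at least 2. Of the P4 duct-like cells, 15 held 4 or more of the genes and 1 held 6.

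**Figure D5:**
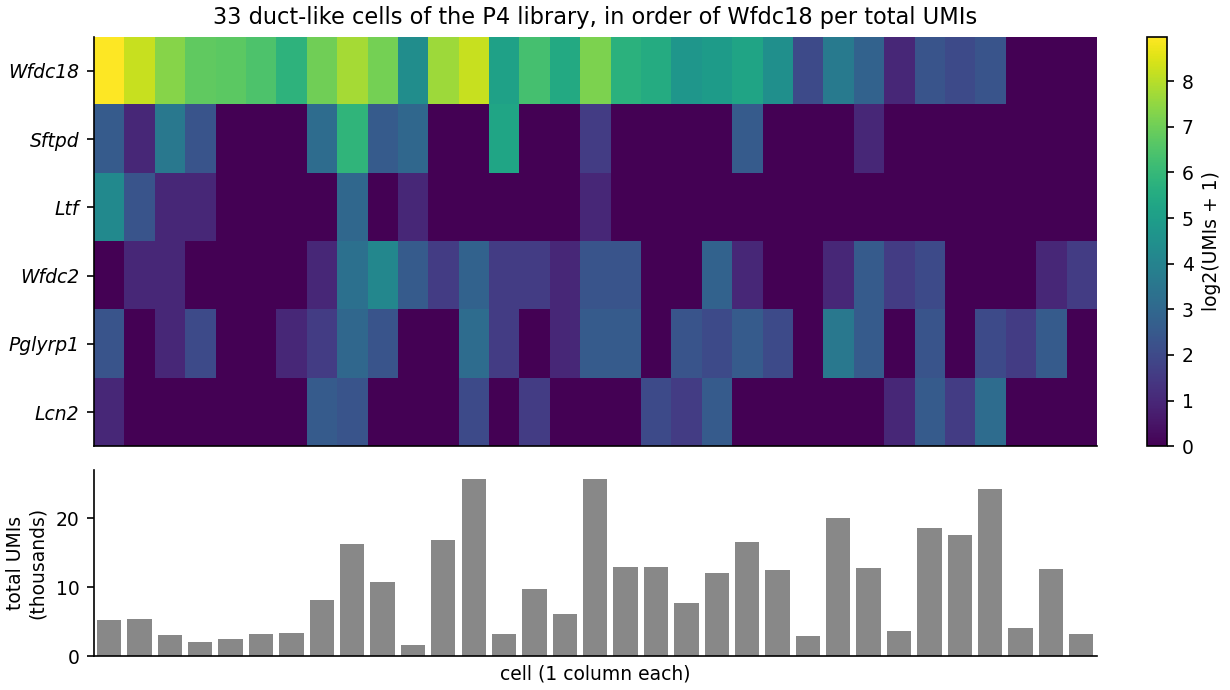
Upper panel, log2 of UMIs plus 1 for 6 genes (rows) in the 33 duct-like cells of P4 (columns), in falling order of Wfdc18 per total UMIs. Lower panel, total UMIs of the same cells, with the axis in units of 1000. Sftpd and Ltf sit mostly in the left part, where Wfdc18 is high and totals are often low.

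All 7 duct-like cells of P4 with Ltf also had Sftpd. All 12 with Sftpd had Wfdc18, as did 18 of the 21 without it. The 12 cells with Sftpd had 16109 CPM of Wfdc18, against 4583 CPM in the 21 without it. The cells with Sftpd had a median of 6841 UMIs and those without had 12024, so the cells with Sftpd were the shallower ones. Wfdc2 was found in 10 of the 12 cells with Sftpd and in 11 of the 21 without. Lcn2 was found in 3 of 12 with Sftpd and 9 of 21 without, at 90.0 and 133 CPM. In E16, where Sftpd and Ltf were at 0, Lcn2 and Wfdc2 shared 19 of the 79 cells outside the duct-like class. Of these 79, 22 had Wfdc2 and 48 had Lcn2. Lcn2 was in 28 of the 31 Col9a1-led cells, which were deep (median 10799 UMIs). The Pearson correlation of the levels of the 2 genes over epithelial-like cells of E16 was 0.10.

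The genes most like each member were taken over epithelial-like cells of 1 library, by Pearson correlation of log-scaled levels among genes in at least 10% of the cells. All points of such a correlation share a library and differ in depth, so it is given as a description. Over 98 cells of P4, Wfdc18 was most like Sat1 (r = 0.67), Cldn4 (0.67) and Cryab (0.62). Sftpd was most like Cyp2f2 (0.77), Cxcl17 (0.76) and Krt7 (0.72), all among the 10 leading genes of the duct-like cluster. Cbr2 (0.64) and Mat2b (0.58) were among the genes most like Wfdc2. Pglyrp1 was most like Dcpp1 (0.65), Dcpp2 (0.64) and Dcpp3 (0.62), and its correlation with depth was as large, at 0.63. For Lcn2 the values were lower, with Prmt5 (0.50), Blvrb (0.50) and Arhgdib (0.45). Over 87 cells of E16, Wfdc18 was most like Krt18 (0.78), Cldn7 (0.72) and Klf6 (0.70). Lcn2 there was most like Cdc37 (0.47), Serpine2 (0.43) and Gnai2 (0.41), and Wfdc2 was most like Rnf219 (0.55), B4gat1 (0.51) and Qtrtd1 (0.50).

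A wider list held 72 other innate defence genes, of which 16 had at least 30 UMIs over the epithelial-like cells of both libraries. In P4, 6 of them were higher by 2-fold or more and 1 was lower, with a median log2 ratio of 0.56 beside -0.53 over all genes, of which 7.09% were higher and 27.4% lower. With abundant genes left out of the totals, a setting added after seeing the data for this list, 8 of the 16 were higher and 0 lower, beside 11.5% and 14.7% of all genes. Bpifa2, a secreted protein of saliva, had 6549 UMIs in P4 and 0 in E16, 1858-fold higher with that 0 set at 3 counts. Lpo, lactoperoxidase of milk and tears, had 148 UMIs in P4 and 1 in E16, a ratio of 126 (22.3 to 5008). Clu, clusterin, was 5.96-fold higher in P4 (2.08 to 23.4), and Rela, a subunit of NF-kappaB, 3.15-fold (1.82 to 5.75). Cebpb, a transcription factor of acute responses, was 2.26-fold lower in P4 (2.02 to 2.53), and 1.72-fold lower (1.54 to 1.93), inside 2-fold, with abundant genes left out. Tfrc, Tnfrsf1a and Myd88 lay within 2-fold, with intervals that held 1. None of the 11 other WAP genes listed reached 30 UMIs in these cells. In P4, Rela (10.9-fold, 4.70 to 30.9) and Cebpb (2.60-fold, 2.13 to 3.18) were higher in duct-like than in other epithelial-like cells, and Bpifa2 was 4.02-fold lower (3.77 to 4.29), beside a median log2 ratio of 0.92 over all genes. With abundant genes left out, Rela was 5.96-fold higher (2.58 to 16.9), Bpifa2 7.34-fold lower (6.88 to 7.82), and Cebpb lay inside 2-fold at 1.42 (1.17 to 1.74).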

How the data were processed

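The authors deposited raw UMI counts for each gene in each barcode, which are whole numbers with no normalization, per the file headers and values. Cell Ranger and the mm10 build are named in the submitters' processing notes, with version, settings and strand handling not given in the sources used here. Labels differ on the platform, 10x in the title and Drop-seq in the protocol. The 13 mitochondrial features had 0 UMIs, so dying cells could not be judged. No barcode was shared by the libraries, and Scrublet called 1 doublet in each, which was kept.

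Depth was 2712614 UMIs over 687 barcodes in P4 and 2234700 over 437 in E16. Barcodes with at least 200 genes were kept. With scanpy 1.11.5, counts were scaled to 10000 and log-transformed, and both libraries were clustered together on 2000 variable genes, 20 components and 15 neighbours (Leiden resolution 1). Clusters took the class whose markers had the highest mean standardized level, with at least 3 markers in at least 20% of cells. An epithelial cluster was duct-like where its duct score exceeded its acinar and myoepithelial scores. The 9 genes were left out of clustering, and names were rebuilt here from markers. CPM divides a gene's UMIs by those of the class. A 0 was set at 3 counts over the class, ratios carry exact conditional 95% intervals and shares exact Clopper-Pearson ones, a share of 0 is limited by 3 counts of the cells, and calls need 30 UMIs and a 2-fold ratio. No p-value was computed. Intervals cover counting error only. The ratio code was tested on simulated data.

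Named genes were all 9 members, up to 4 furthest in each direction of the wider list, and the 3 most alike genes with r of at least 0.4. Some genes that these rules name are not reported here. The members and lists were chosen with earlier results of these data known. Alternatives are listed in the closing section.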

Additional observations from a re-analysis of the deposited data

Results flagged for a closer look

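For 3 genes, a comparison pointed in opposite directions in the 2 groups it was made in, and the difference between the groups was not tested, since each stage was 1 library. The P4 over E16 ratio of Wfdc18 was 0.654 in duct-like and 7.47 in other epithelial-like cells. For Wfdc2 it was 1.37 in duct-like cells, with an interval that held 1, and 0.262 in other epithelial-like cells. Lcn2 in duct-like over other epithelial-like cells was 1.07 in P4, with an interval that held 1, and 0.412 in E16.

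Barcodes under 200 genes were left out of the report, and 2 genes had more than 3 UMIs among them. Wfdc18 had 11 UMIs and Pglyrp1 had 10 over the 281 such barcodes of P4, each UMI in a barcode of its own, against 1 and 0 UMIs in the 178 of E16. Haemoglobin genes made up 95.4% of the UMIs of these barcodes in P4 and 95.7% in E16.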

How the results depend on the processing

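With 12 alternatives, 435 of 494 member ratios had the same call as reported, and 373 of 410 ratios beyond 2-fold kept theirs. The count of genes at least 2-fold lower in P4 was 0 with each cell weighted equally and without the Dcpp- or Smgc-rich cells. The count higher in duct-like than in other epithelial-like cells of P4 was 8 under the per-cell marker rule, beside 11.1% of all genes. There Wfdc12 (28.0), Pglyrp1 (6.66) and Dmbt1 (3.49) reversed in that comparison and Wfdc2 in E16 did (0.897). At Leiden resolution 0.5, Lcn2 in duct-like over other epithelial-like cells of E16 reversed (1.29), and at resolution 2, with 14 duct-like cells in P4, Wfdc2 in P4 over E16 other epithelial-like cells did (1.08). The causes were not tested. In P4 over E16, the count higher ranged between 1 and 7 in duct-like cells and between 1 and 4 in other epithelial-like cells. The share of all genes higher ranged between 9.93% and 19.0% in the former and between 4.30% and 10.4% in the latter. The share of P4 duct-like cells with 2 or more genes was 48.5% after thinning to 1000 UMIs. Apart from the 8 named above, 4 counts stayed within 1.5 times the reported ones in every alternative run: genes higher in P4 over epithelial-like cells, genes higher in epithelial-like than in non-epithelial cells of each library, and genes higher in duct-like than in other epithelial-like cells of P4. The alternatives included those with 500 genes per barcode, each library clustered alone, the 9 genes kept in clustering, the cell with most UMIs of the gene left out, cells over 20000 UMIs left out, and, added after seeing the data, Scrublet doublets left out. No paired analysis was possible because each stage is 1 library. Depth limits E16 most, where the 8 duct-like cells held 43329 UMIs and 3 counts are 69.2 CPM.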
